A study of Mus musculus with 88 samples.

Results

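Mouse embryonic stem cells (mESCs) received plasmids that each carry 1 homeobox gene, and the libraries described here are those of Obox1, Obox2 and Obox7. They were the 3 libraries ES_Obox1, ES_Obox2 and ES_Obox7, 1 library each, among 19 mESC libraries in the deposited table and 88 samples in the series. They were taken by the name of the plasmid, described singly and as a group of 3, and set against the 2 control libraries, ES_Empty. The cells of all these groups were male, wild-type and of the hybrid C57BL/6 / 129 strain, and all were grown with LIF and with the inhibitors PD0325901 (MEK) and CHIR99021 (GSK3), so the controls shared this medium. Plasmids were delivered by lipofection, and stranded libraries were made from total RNA. The vector, its promoter and the time from transfection to harvest are not given for these libraries in the sources used here. Whether transfected cells were selected is likewise not stated, and a value is an average over the cells collected. ES_Obox3, ES_Obox5 and ES_Obox6, with 2 libraries each, served as a second reference. No plasmid of interest had a replicate, so the fit assumed that each lone library varies like the libraries of the 5 replicated groups. The labels do not say whether replicates of a group came from separate cultures, so the p-values reflect the spread among the sequenced samples alone, and that spread may be technical.

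Obox genes encode homeodomain proteins, transcription factors that bind DNA through a conserved helical fold, and they are found in rodents in a cluster of many related copies. Their transcripts are known from oocytes and early embryos, some stored maternally and some made when the embryonic genome is first transcribed. The homeodomain is related to that of Crx and Otx, factors that prefer sites with the core TAATCC. Embryonic stem cells normally keep these genes silent and resemble the later inner cell mass, held there by factors such as Pou5f1, Sox2 and Nanog.

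Values are TPM, the deposited unit of transcript abundance, divided by a scale factor per library, here called scaled TPM. A log2 fold change is a difference of log2(scaled TPM + 1), which understates the change of low genes. The scale factors of the 3 Obox libraries were 1.15 to 1.32 and those of ES_Empty 1.15 and 1.28, and the 10 most abundant genes took 52.6 to 58.8% of the TPM in these 5 libraries. A gene of 1 kb at 1 TPM rested on 2.27 reads in ES_Obox7, the shallowest library of the table, on 3.04 in ES_Obox1, on 3.32 in ES_Obox2, and on 3.72 and 4.88 in ES_Empty. Across the genes tested, the correlation of log2(scaled TPM + 1) with the 2 ES_Empty libraries was 0.956 and 0.951 for ES_Obox1, 0.956 and 0.955 for ES_Obox2, and 0.944 and 0.945 for ES_Obox7, beside 0.959 between the 2 ES_Empty libraries. All 10 mESC markers reached 1 scaled TPM in each of the 5 libraries, with sums of 1773 in ES_Obox7, 1966 in ES_Obox2, 1989 in ES_Obox1, and 2058 and 1970 in ES_Empty. Fibroblast markers summed to between 4.33 and 6.30, with 2 to 5 of 12 at 0, neural markers to between 37.7 and 48.8, and cardiac and muscle markers to between 6.03 and 9.03 in these libraries.

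Each plasmid's own gene was the highest Obox gene of its library. Obox1 (chromosome 7, 15547257 to 15556846, GRCm38.p6, protein coding) stood at 1446 scaled TPM in ES_Obox1, 27.7 in ES_Obox2 and 0 in ES_Obox7. Obox2 (chromosome 7, 15388851 to 15398545) stood at 1263 in ES_Obox2, 15.1 in ES_Obox1 and 1.495 in ES_Obox7. Obox7 (chromosome 7, 14659708 to 14665996) stood at 2545 in ES_Obox7, 0.172 in ES_Obox1 and 0.737 in ES_Obox2. All of these genes were listed at 0 in both ES_Empty libraries, so no fold change is given. Obox7 reached 1 scaled TPM in 1 library only and was therefore not tested.

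Obox1 and Obox2 have near-identical copies, and their levels in each other's library are uncertain. The Obox1 value in ES_Obox2 was 2.19% of that of Obox2, and the Obox2 value in ES_Obox1 was 1.05% of that of Obox1. ES_Obox7 also held reads on the pseudogenes Obox3-ps7 and Obox3-ps8, at 22.5 and 6.64 scaled TPM, which stood at 0 and 0.288 in ES_Obox1, at 0 and 1.09 in ES_Obox2, and at 0 in ES_Empty. Obox5 stood at 1.98, 2.498 and 2.02 scaled TPM in ES_Obox1, ES_Obox2 and ES_Obox7 and was listed at 0 in ES_Empty, with a limma adjusted p of 0.0833 for the mean of the 3. It stood at 957.4 and 1037 in ES_Obox5, so the values in the Obox1, Obox2 and Obox7 libraries were small beside those from its own plasmid.

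**Figure D1:**
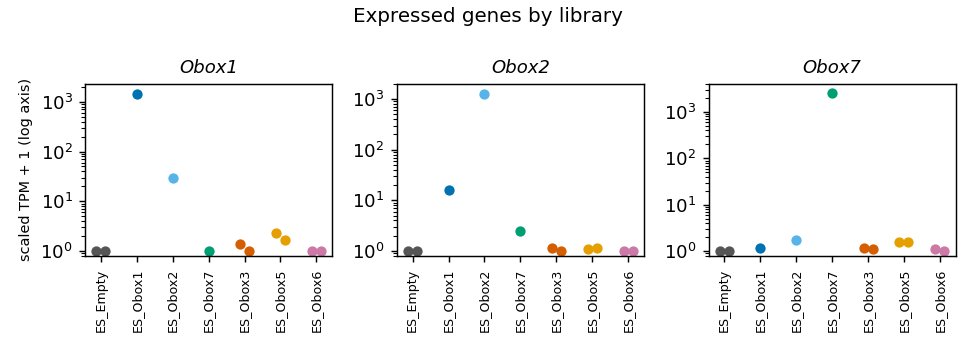
Level of Obox1, Obox2 and Obox7 in each library, as scaled TPM + 1 on a log axis. Each point is 1 library, and the groups are on the horizontal axis. Obox1 is at 1446 in ES_Obox1, Obox2 at 1263 in ES_Obox2 and Obox7 at 2545 in ES_Obox7, and all are listed at 0 in ES_Empty.

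The first comparison asked which genes changed with Obox1, Obox2 and Obox7 as a group, by the mean of the 3 libraries against ES_Empty. Besides Obox1 and Obox2 themselves, no gene marked protein coding in RefSeq passed the test. Of 23650 genes tested, 5 were called higher (0.0211%) and 0 lower, at a limma adjusted p under 0.05 and at least a 2-fold change, and 872 genes (3.69%) had an unadjusted p under 0.05. The genes called were Obox2, Obox1, Mir194-1, Gm26014 and Gm49843. For 93.7% of the 12300 protein-coding genes tested, 11528 genes, the 95% confidence interval of the log2 fold change lay between -1 and 1. The interval is on log2(scaled TPM + 1). For genes of low level it therefore does not leave out a 2-fold change in abundance. Over all genes tested, 66.7% had such an interval. Without ES_Obox1, the adjusted p of Obox1 was 0.0915. In a fit of the 5 libraries alone, with differences between the 3 plasmids counted as spread, 0 genes were called and 572 had an unadjusted p under 0.05.

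Taken singly, the 3 plasmids gave few calls as well. Against ES_Empty, 7 genes were called with ES_Obox1 (0.0296%), 5 higher and 2 lower. With ES_Obox2, 9 were called (0.0381%), all higher, and with ES_Obox7, 2 were called (0.00846%), both higher. The numbers with an unadjusted p under 0.05 were 1063, 844 and 1417. Other than Obox1 and Obox2, 0 of the genes called were protein coding. A single library gives a wider interval than the mean of 3. The interval lay within -1 and 1 for 80.8% of the protein-coding genes with ES_Obox1, 82.3% with ES_Obox2 and 80.1% with ES_Obox7.

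The other genes called were microRNA genes, small nucleolar RNA genes, pseudogenes or genes with no RefSeq entry under their symbol, and those whose reads could be recovered rested on 1 to 3 reads in a library. Reads were not recovered for Gm49843 and Gm44145, among others, so this does not cover them. Mir194-1, a microRNA gene on chromosome 1, stood at 8.24 scaled TPM in ES_Obox1, 0 in ES_Obox2 and 10.0 in ES_Obox7 and was listed at 0 in ES_Empty. These values correspond to 2, 0 and 2 reads. Mir152, called with ES_Obox1, stood at 11.3 scaled TPM there, from 3 reads, and at 0 in the other 4 libraries. Gm26014, a small nucleolar RNA gene, stood at 4.18, 5.96 and 2.54 scaled TPM in ES_Obox1, ES_Obox2 and ES_Obox7, from 2, 3 and 1 reads, and was listed at 0 in ES_Empty. It also had 2 and 3 reads in the ES_Obox3 libraries, 2 and 3 in those of ES_Obox6 and 0 in those of ES_Obox5. Mir194-1 had 0 reads in these 3 groups and 3 in ES_Crxos2, so reads on these 2 genes were not particular to Obox1, Obox2 and Obox7. The microRNA gene Mir694 stood at 7.497 scaled TPM, from 2 reads, in ES_Obox2. The 2 genes lower with ES_Obox1 were Mir8116, at 4.33 and 3.69 scaled TPM in ES_Empty and 0 in ES_Obox1, and Gm44145, at 9.76 and 10.4 in ES_Empty and 0 in ES_Obox1. Gm44145 stood at 7.63 in ES_Obox2 and 15.6 in ES_Obox7. The part of read sampling in these calls was not tested.

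**Figure D2:**
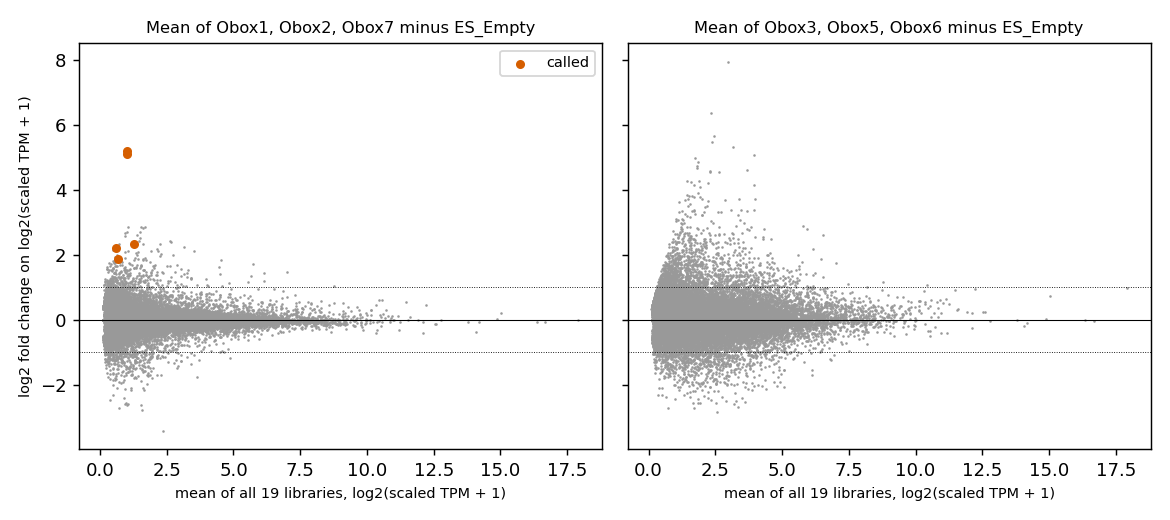
Log2 fold change against ES_Empty (vertical axis) by mean level (horizontal axis, mean log2(scaled TPM + 1) over the 19 libraries), 1 point per gene tested. The left panel is the mean of Obox1, Obox2 and Obox7, with the 5 called genes coloured, and the right panel is the mean of Obox3, Obox5 and Obox6, with no gene coloured. Dotted lines mark a log2 fold change of -1 and 1. In the left panel the wide scatter sits among genes of low level.

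Of the factors that hold the stem cell state, none of the 4 named was called. Pou5f1, a POU factor required for pluripotency, stood at 300.4, 304.9 and 269.9 scaled TPM in ES_Obox1, ES_Obox2 and ES_Obox7 and at 299.0 and 289.9 in ES_Empty (log2 fold change of the mean -0.02, interval -0.24 to 0.21). Sox2, its partner on DNA, stood at 56.02, 54.6 and 62.0 against 61.3 and 57.8 (-0.05, interval -0.37 to 0.27). Both groups overlapped for these genes. Nanog, a homeodomain factor, stood at 125.2, 129.6 and 116.3 against 147.0 and 133.6, so that all 3 libraries lay below both controls (-0.18, interval -0.38 to 0.02, limma adjusted p = 1). Klf4, a zinc finger factor of naive cells, likewise stood lower in all 3, at 56.1, 59.1 and 49.4 against 67.7 and 68.4 (-0.31, interval -0.52 to -0.10, adjusted p = 1). Neither was called, and both intervals leave out a 2-fold change.

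Genes of the early embryo stayed near the floor. Trim43a, a member of a gene family active in 2-cell embryos, stood at 0.765, 0 and 0.846 scaled TPM in ES_Obox1, ES_Obox2 and ES_Obox7 and at 0.106 and 0 in ES_Empty. Dppa3, a maternal factor that protects DNA methylation in the zygote, stood at 2.48, 2.21 and 4.14 against 2.59 and 1.80. Zscan4d, a marker of the 2-cell-like state, stood at 0.243, 0 and 0.517 against 0.0462 and 0.0394, and Zfp352 at 0, 0 and 0.295 against 0.0922 and 0. Klf17, a Krüppel-like factor, stood at 0.575, 0.0547 and 0.140 against 0.175 and 0. Gata4, a primitive endoderm factor, stood at 1.70, 0.269 and 0.516 against 0.269 and 0.458, and Crxos, a homeobox gene, at 0.654, 0.0888 and 0.908 against 0.284 and 0.837. Fbxo15, an F-box gene of oocytes and stem cells, stood at 31.0, 23.2 and 25.5 against 23.8 and 22.7. None of these was called in limma, and in each the 3 libraries overlapped the controls. Apart from Fbxo15, these levels rest on few reads, and differences among them are not detectable at this depth.

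Of 18 gene lists, the list of Obox and related homeobox genes alone held called genes in the mean of the 3 libraries, and those were Obox1 and Obox2. The other 17 lists held 0 called genes in either direction, beside 0.0211% of all genes tested. Among 59 tested genes of the 2-cell stage the median log2 fold change was 0.06, with a range of -0.51 to 0.50, and 49 had an interval within -1 and 1. Genes near the floor move little on this scale, because 1 is added to each value. For such genes a narrow range or interval does not bound the change in abundance. The median over all genes tested was 0. The 34 naive pluripotency genes had a median of -0.07 and a range of -0.31 to 0.19, and all 34 intervals lay within -1 and 1. The 30 cell cycle and DNA replication genes had a median of -0.04 and the 31 DNA methylation and chromatin genes one of -0.06, again with every interval within those bounds. The 33 p53 target and stress genes had a median of 0.04, and 32 intervals lay within them. The oocyte list was sparse, with 15 of 44 genes tested and a median of -0.08. Its lowest member was Zp3, a zona pellucida gene, at a log2 fold change of -0.68. Trophoblast genes had a median of -0.35 with ES_Obox7, beside -0.06 with ES_Obox1 and 0.03 with ES_Obox2, and 0 of 14 were called with any of them.

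**Figure D3:**
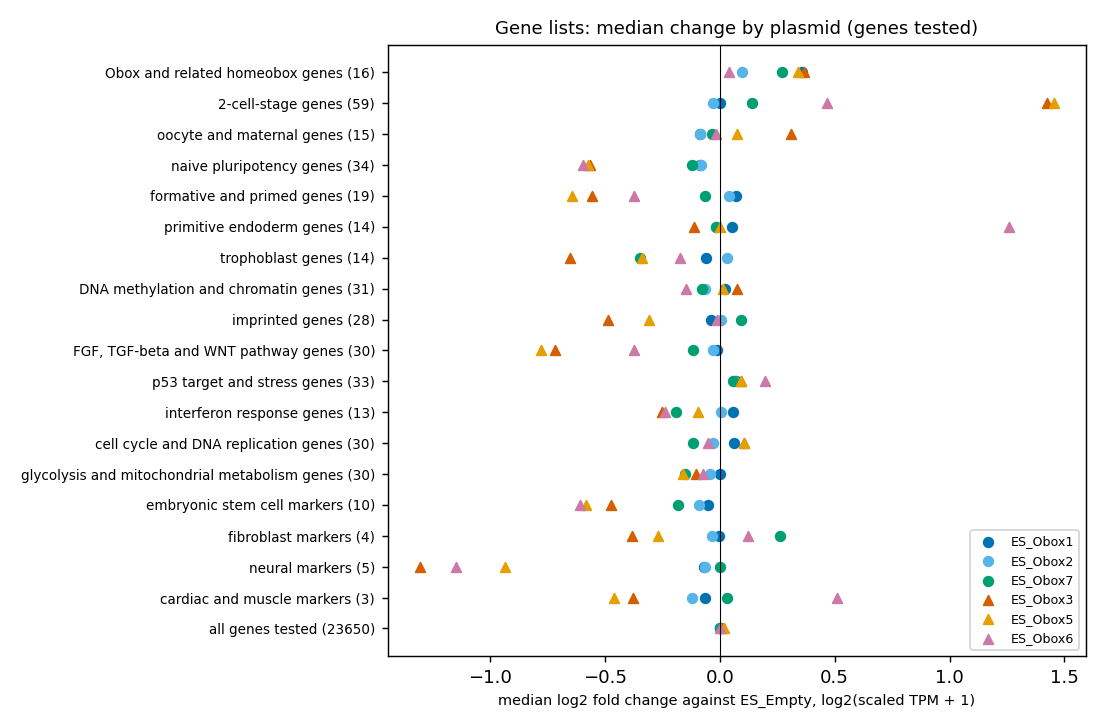
Median log2 fold change against ES_Empty of the genes tested in each list (number in brackets), by plasmid. Circles are Obox1, Obox2 and Obox7 and triangles are Obox3, Obox5 and Obox6, all of which share the ES_Empty libraries. For 2-cell-stage genes the circles lie between -0.03 and 0.14 and the triangles at 0.46, 1.42 and 1.45.

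Some protein-coding genes that were not called are given next, and they were chosen after their values were seen. Sord, which encodes sorbitol dehydrogenase, stood at 13.3 scaled TPM in ES_Obox1, 6.08 in ES_Obox2 and 4.71 in ES_Obox7 against 4.64 and 3.04 in ES_Empty. Its log2 fold change with ES_Obox1 was 1.58 (SE 0.18, limma adjusted p = 0.0802). Dpp4, a membrane peptidase, stood at 10.8 in ES_Obox1, 3.20 in ES_Obox2 and 2.63 in ES_Obox7 against 2.01 and 2.66 (ES_Obox1 1.83, SE 0.28, adjusted p = 0.186). Both genes stood highest in ES_Obox1. Ppp1ccb, a phosphatase subunit gene, stood at 24.0 in ES_Obox7, 9.98 in ES_Obox1 and 9.76 in ES_Obox2 against 7.51 and 6.89 (ES_Obox7 1.61, SE 0.21, adjusted p = 0.0995). Dnajc17, a co-chaperone gene, was low in ES_Obox2 and ES_Obox7, at 3.41 and 3.46 against 9.30 and 8.25 in ES_Empty, and stood at 7.35 in ES_Obox1 (mean of the 3 -0.83, adjusted p = 0.158). The 3 libraries lay on 1 side of both controls for Sord, Ppp1ccb and Dnajc17, and also for Xbp1 and S100a6, given next. That was a condition of choosing these genes, so it is not a further result. The adjusted p-values of Xbp1 and S100a6 are for the mean of the 3. Those of Sord, Dpp4 and Ppp1ccb are for single libraries. Xbp1, a factor of the unfolded protein response, stood at 15.1, 12.6 and 13.7 in ES_Obox1, ES_Obox2 and ES_Obox7, above 9.11 and 9.25 in ES_Empty (0.54, adjusted p = 0.814). S100a6, a calcium-binding protein gene, stood at 4.04, 4.80 and 2.701, below 8.59 and 10.6 (-1.15, adjusted p = 0.899).

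The 3 plasmids were then compared with each other, in contrasts that hold no ES_Empty library. Between ES_Obox1 and ES_Obox2, 5 genes differed (0.0211%), between ES_Obox1 and ES_Obox7 2 (0.00846%), and between ES_Obox2 and ES_Obox7 4 (0.0169%). The protein-coding genes among them were Obox1 and Obox2. The rest were Mir194-1, Mir152, Gm44145 and Gm49843. Unadjusted p-values under 0.05 numbered 1131, 1848 and 1351. These contrasts set 1 library against 1, and the interval lay within -1 and 1 for 70.9, 68.7 and 70.7% of the protein-coding genes, and the intervals of the remaining genes reached or lay beyond those bounds. For Sord the difference of ES_Obox1 from ES_Obox2 was 1.01 (SE 0.21, adjusted p = 0.431) and from ES_Obox7 1.32 (SE 0.21, adjusted p = 0.186), and neither was called.

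The last comparison asked whether Obox1, Obox2 and Obox7 differ from Obox3, Obox5 and Obox6, with the mean of each set of 3 plasmids taken and no ES_Empty library used. They did, with 473 genes higher (2.00%) and 1078 lower (4.56%) of 23650 in limma, of which 300 and 671 were protein coding. On TPM as deposited, 1187 genes were higher and 740 lower, so that 61.6% of the calls were higher, beside 30.5% on scaled TPM. The median of all genes moved with it, from -0.05 to 0.22. The second set of libraries also had scale factors of 0.622 to 1.12 and 54.1 to 73.8% of TPM in the 10 most abundant genes, and this composition and the plasmids cannot be told apart. Against ES_Empty, 2542 genes were called with ES_Obox3 (10.7%), 1817 with ES_Obox5 (7.68%) and 885 with ES_Obox6 (3.74%), beside the 7, 9 and 2 given above for Obox1, Obox2 and Obox7. ES_Obox1, ES_Obox2 and ES_Obox7 were fitted from 1 library each and these from 2, and all share the ES_Empty libraries.

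Several named genes called lower in the Obox1, Obox2 and Obox7 libraries were high with the other plasmids. Trim43a, given above for the former, stood at 111.9 and 112.7 scaled TPM in ES_Obox3, 89.1 and 85.4 in ES_Obox5, and 66.8 and 63.4 in ES_Obox6 (log2 difference -5.88, SE 0.09, adjusted p = 2.7e-07). Guca1a, a guanylate cyclase activator of photoreceptors, stood at 0.158, 0.150 and 0 in ES_Obox1, ES_Obox2 and ES_Obox7 and at 0.240 and 0.102 in ES_Empty, against 97.7 and 109.0, 84.3 and 78.2, and 25.7 and 21.1 in ES_Obox3, ES_Obox5 and ES_Obox6 (-5.75, SE 0.10, adjusted p = 4.92e-07). Dppa3 stood at 280.4 and 319.9 in ES_Obox3, 286.1 and 255.3 in ES_Obox5 and 16.6 and 12.5 in ES_Obox6 (-4.81, SE 0.20, adjusted p = 1.71e-05). For each of these genes, every library of the second set lay above every library of the first. They rank among the 6 largest named decreases of this same comparison, so the separation is not a separate result.

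Pemt, a phosphatidylethanolamine methyltransferase, stood at 1.18, 0.499 and 0.319 in the 3 libraries against 78.3 and 90.8, 87.3 and 88.8, and 3.99 and 6.31 (-4.46, SE 0.15, adjusted p = 9.25e-06). Bex6 differed by -4.34 and Pdpn, the podoplanin gene, by -4.31. Fbxo15 differed by -2.72, Klf17 by -3.61, Crxos by -3.76 and Gata4 by -3.05. Klf17 overlapped between ES_Obox1 (0.575) and ES_Obox6 (0.0921 and 1.07), while ES_Obox3 stood at 62.1 and 63.3 and ES_Obox5 at 37.4 and 33.0. Zscan4d (-0.24, adjusted p = 0.434) and Zfp352 (-0.44, adjusted p = 0.106) were not called, and neither reached 2 scaled TPM in any library of these groups.

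Genes higher in the Obox1, Obox2 and Obox7 libraries overlapped ES_Empty there and stood lower with the other plasmids, for each of the 4 genes named next. Sox2 stood at 15.6 and 15.8, 14.0 and 14.6, and 13.3 and 9.40 scaled TPM in ES_Obox3, ES_Obox5 and ES_Obox6 (2.00, SE 0.11, adjusted p = 4.01e-05), against 54.6 to 62.0 with Obox1, Obox2 and Obox7. Lrrc34, a leucine-rich repeat gene of stem cells, stood at 17.2, 22.5 and 23.6 in ES_Obox1, ES_Obox2 and ES_Obox7, at 20.7 and 22.2 in ES_Empty and at 1.04 to 3.27 in the second set (2.65, SE 0.15, adjusted p = 4.77e-05). Nkx6-2, a homeobox gene, and F2rl1, a protease-activated receptor, differed by 2.51 and 2.48. Nanog and Pou5f1 differed by 0.39 and 0.41, below the 2-fold threshold. Klf4 differed by 0.77, below it as well, and by 1.16 on TPM as deposited, where it was called (adjusted p = 0.000778).

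**Figure D4:**
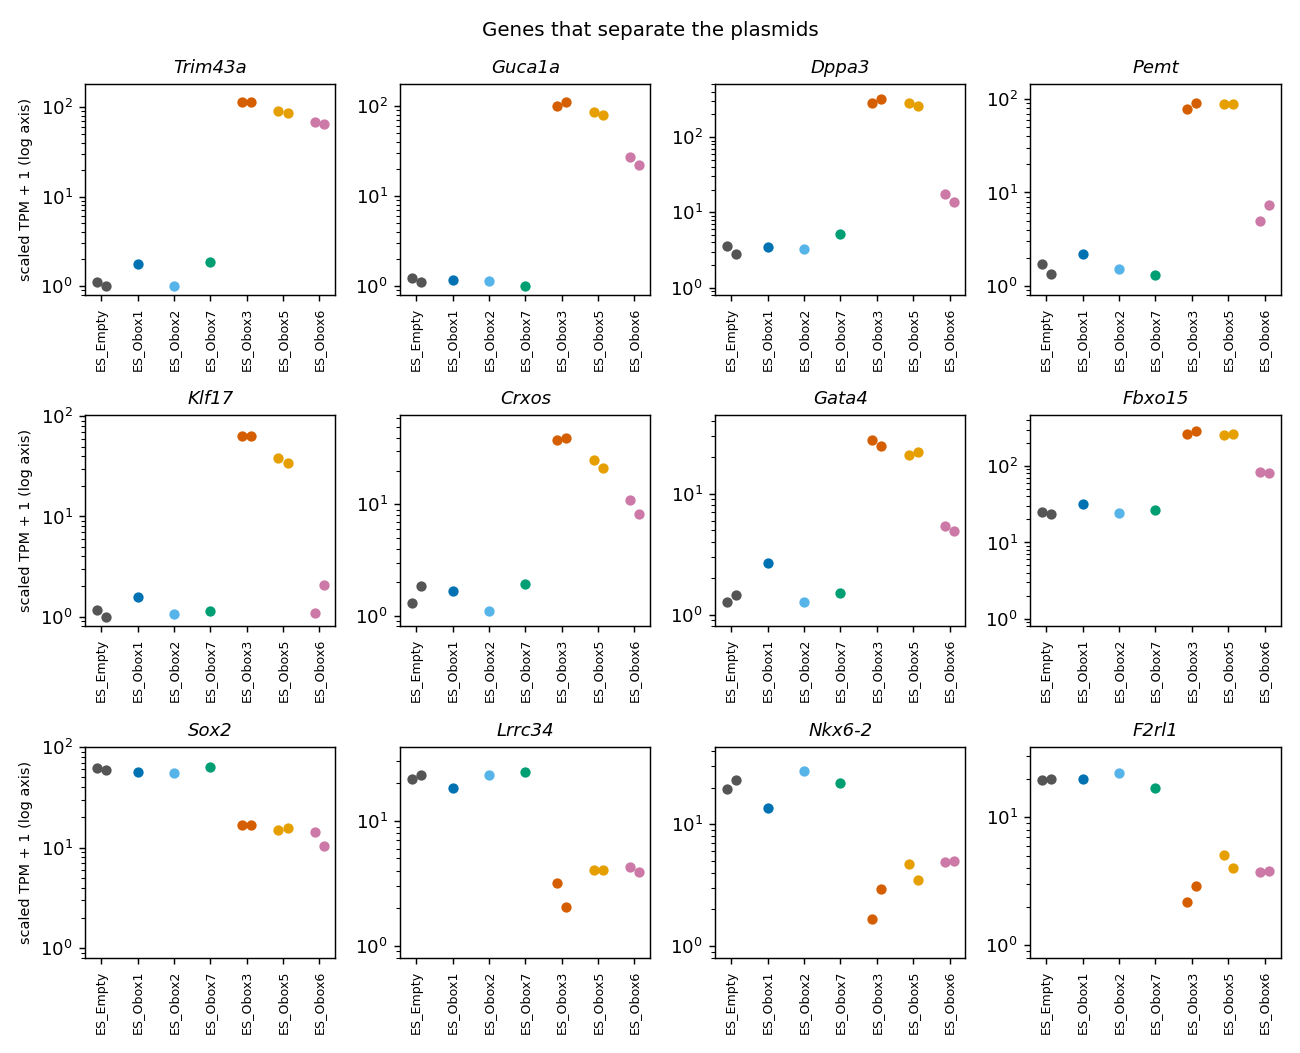
Level of 12 genes in each library, as scaled TPM + 1 on a log axis, with 1 point per library and groups on the horizontal axis. The genes were picked from the named genes, several of which were named for the size of this difference. ES_Obox1, ES_Obox2 and ES_Obox7 lie beside ES_Empty, while ES_Obox3, ES_Obox5 and, for most genes, ES_Obox6 stand apart, as with Trim43a at 63.4 to 112.7 against 0 to 0.846.

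By list, 30 of 59 genes of the 2-cell stage were lower and 0 higher in the Obox1, Obox2 and Obox7 libraries than with Obox3, Obox5 and Obox6, with a median difference of -1.07 against -0.05 for all genes. Over all genes tested, 2.00% were called higher and 4.56% lower in this comparison, and the counts by list stand beside these shares. On TPM as deposited, 28 of 58 were lower. Genes entered the test at 1 scaled TPM in at least 2 of the 19 libraries. Genes below 1 with Obox1, Obox2 and Obox7, such as Trim43a, entered through other libraries and could not be called higher. The balance of higher and lower calls is thus in part set by this filter, in the list and over all genes. With ES_Dux replicate 1 or the unnumbered ES_Dux library left out, 52 genes of the list were tested. The naive pluripotency list had 6 genes higher and 1 lower of 34, among them Gbx2 (1.53) and Spp1 (1.51) higher and Dppa2 (-1.47) lower. The FGF, TGF-beta and WNT pathway list had 12 higher and 1 lower of 30, with the FGF feedback inhibitor Spry4 at 2.33 and the ligand gene Bmp4 at 2.09. On TPM as deposited those counts were 15 and 1, and 15 and 0. The imprinted list had 7 higher and 0 lower of 28, with the maternally expressed noncoding RNA genes Meg3 and Rian at 1.33 and 1.20. The DNA methylation and chromatin list had 0 higher and 2 lower of 31, with a median of -0.025. On TPM as deposited it had 3 higher and 1 lower, with a median of 0.352. The 2 lower on scaled TPM were the de novo DNA methyltransferase genes Dnmt3a and Dnmt3b, which differed by -2.28 and -1.16. Dnmt3a stood at 3.57 to 5.87 scaled TPM with Obox1, Obox2 and Obox7 against 14.3 to 55.8 with the others. Markers of some other cell types moved in this comparison as well. Of 4 fibroblast markers and 3 cardiac and muscle markers tested, 0 were called. Of 14 trophoblast genes tested, 3 were higher and 2 lower. Of 5 neural markers tested, 3 were higher and 0 lower (median 1.03), and the 10 neural markers summed to 37.7 to 48.8 scaled TPM with Obox1, Obox2 and Obox7 against 11.04 to 17.55 with Obox3, Obox5 and Obox6. Of 14 primitive endoderm genes tested, 1 was higher and 4 were lower (median -0.49), and the 23 genes of that list summed to 501.1 to 616.2 against 726.1 to 971.5. Their part in the other differences was not tested.

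Promoters from RefSeq on GRCm38.p6 are shown for 4 named genes that were lower in the Obox1, Obox2 and Obox7 libraries and hold the letters searched. The window runs from 250 bases before to 50 after the start site. The letters TAATCC were searched on both strands, as TAATCC or its reverse complement GGATTA, and are in capitals. In the table of 27025 promoters, 1 per gene, 1935 (7.16%) hold them. Of 21 named genes, 17 had a promoter in the table and 6 held the letters. The named genes with a match were Trim43a, Guca1a, Pemt, Klf17 and Nanog, with 1 each, and Zfp352, with 9. Of the other named genes called lower, Bex6, Pdpn and Crxos held none, and of those called higher Sox2, Lrrc34 and Nkx6-2 held none. Crxos has 3 start sites, and Pemt, Nanog and Pou5f1 have 2 each, of which 1 per gene was read. Dppa3, Gata4 and Fbxo15, which also stood lower, and F2rl1, which stood higher, had no promoter in the table.
Trim43a (chr9:88580641-88580940, plus strand): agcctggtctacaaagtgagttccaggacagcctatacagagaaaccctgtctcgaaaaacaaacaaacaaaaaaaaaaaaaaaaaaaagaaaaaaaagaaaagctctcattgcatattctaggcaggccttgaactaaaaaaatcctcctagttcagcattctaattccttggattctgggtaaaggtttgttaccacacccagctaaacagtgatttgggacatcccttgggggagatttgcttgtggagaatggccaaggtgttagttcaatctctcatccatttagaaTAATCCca
Guca1a (chr17:47400557-47400856, minus strand): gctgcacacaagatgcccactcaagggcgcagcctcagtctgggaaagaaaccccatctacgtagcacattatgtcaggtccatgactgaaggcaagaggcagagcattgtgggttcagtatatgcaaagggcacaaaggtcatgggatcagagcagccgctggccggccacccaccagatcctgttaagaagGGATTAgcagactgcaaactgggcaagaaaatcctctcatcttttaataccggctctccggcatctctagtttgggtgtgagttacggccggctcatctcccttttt
Pemt (chr11:60040139-60040438, minus strand): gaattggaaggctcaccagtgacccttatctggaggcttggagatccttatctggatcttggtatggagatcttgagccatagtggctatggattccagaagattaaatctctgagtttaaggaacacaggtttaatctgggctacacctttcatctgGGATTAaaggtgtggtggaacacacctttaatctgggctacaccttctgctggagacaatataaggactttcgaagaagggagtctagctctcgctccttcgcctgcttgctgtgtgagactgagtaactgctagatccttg
Klf17 (chr4:117765617-117765916, minus strand): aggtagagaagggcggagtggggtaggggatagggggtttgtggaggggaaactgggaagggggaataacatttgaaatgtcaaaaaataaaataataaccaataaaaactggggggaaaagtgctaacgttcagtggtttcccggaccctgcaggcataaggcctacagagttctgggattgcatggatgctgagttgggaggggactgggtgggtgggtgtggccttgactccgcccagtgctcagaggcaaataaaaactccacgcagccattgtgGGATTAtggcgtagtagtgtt
Trim43a, Guca1a, Pemt and Klf17 were listed at or near 0 with Obox1, Obox2 and Obox7 and were high with Obox3 and Obox5, whereas Nanog differed by less than 2-fold and Zfp352 was not called. A match is a description of these letters in this window and was not tested against the levels.

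In limma, 288 genes were called higher against ES_Empty with each of Obox3, Obox5 and Obox6, beside 7.30, 5.56 and 2.57% of all genes called higher with each. Their median log2 fold changes were 2.31, 2.05 and 1.61 with those plasmids. The same genes had a median of 0.16 with ES_Obox1, 0.02 with ES_Obox2 and 0.00 with ES_Obox7, and 0.08 for the mean of the 3. In that mean 0 of the 288 were called higher, beside 0.0211% of all genes tested, so this count does not set them apart. These values share the ES_Empty libraries with the ones that chose the genes. In the contrasts without ES_Empty, ES_Obox1 stood above ES_Obox2 in 177 of the 288 genes (median 0.10) and above ES_Obox7 in 180 (median 0.14), and ES_Obox2 above ES_Obox7 in 149 (median 0.02). Of the 288, 0 were called higher in any of the 3, beside 3, 1 and 2 of all genes tested. The median over all genes tested was 0 in each of these contrasts, which set 1 library against 1. The share of all genes that stood above was not counted. The 168 genes called lower with all of Obox3, Obox5 and Obox6 had medians of -1.70, -1.49 and -1.37 with those plasmids, beside 3.45, 2.13 and 1.18% of all genes called lower with each. Their median was -0.11 for the mean of Obox1, Obox2 and Obox7, in which 0 were called lower, as were 0 of all 23650 genes tested. Singly their medians were -0.15 with ES_Obox1, -0.09 with ES_Obox2 and -0.09 with ES_Obox7. Without ES_Empty the median difference was -0.04 between ES_Obox1 and ES_Obox2, -0.04 between ES_Obox1 and ES_Obox7 and 0.00 between ES_Obox2 and ES_Obox7. Of the 168, Gm44145, given above at 0 in ES_Obox1, was the 1 gene called lower with ES_Obox1, both against ES_Empty and against ES_Obox2 and ES_Obox7, and 0 were called lower with ES_Obox2 or ES_Obox7 against ES_Empty. Over all genes tested, 0.00846% were called lower with ES_Obox1 against ES_Empty, and 0 with ES_Obox2 or ES_Obox7.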

How the data were processed

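The deposited values are TPM per gene, made by the authors from total RNA, per the file headers. Among the tools in the submitters' processing notes are featureCounts 1.6.5 and HISAT2, with the build mm10. Settings, annotation and the handling of multiply mapped reads: not given in the sources used here. The table held 55364 genes. TPM were divided by a median-ratio factor per library, from 16503 genes above 0 in all 19 libraries, because small noncoding RNAs took much of each library. Whole reads were recovered for 51.6 to 60.6% of the values of short genes (tolerance 0.001), so no count model was used and read numbers are given for single short genes only.

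Genes at 1 scaled TPM or more in at least 2 libraries entered limma (version 3.58.1, with statmod 1.5.0, run in R 4.3.3) as log2(scaled TPM + 1). The variance followed a trend and was moderated robustly, and p-values were adjusted over all genes by Benjamini-Hochberg. The fit had 1 coefficient per plasmid over 19 libraries, 5 residual and 2.19 prior degrees of freedom (median). Genes were called at an adjusted p below 0.05 with at least a 2-fold change. For ES_Obox3, ES_Obox5 and ES_Dux, 1 library each has no replicate number in the labels. The fit was tested on simulated data. Named genes were the expressed genes, 12 genes named whatever their values, up to 12 called protein-coding genes per direction for the mean of the 3 libraries that lay beyond both controls, 4 called genes per list, 4 per direction and pair of plasmids, and 6 per direction against Obox3, Obox5 and Obox6, at 5 scaled TPM or more outside the fixed and list genes. A gene that meets the rule is left out of the named genes and not reported here. The libraries, lists and rule were chosen with earlier results of these data known. Alternatives were TPM as deposited, a pseudocount of 0.1, other filters, no robust moderation, a fit of 5 libraries, and leaving out 1 library at a time. The libraries left out in turn were those of ES_Empty, ES_Dux, ES_Obox1, ES_Obox2, ES_Obox3, ES_Obox5, ES_Obox6 and ES_Obox7, and the rest of the 19 always stayed in.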

Additional observations from a re-analysis of the deposited data

Results flagged for a closer look

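Effects that differed between sets of plasmids by a limma test of the difference itself are gathered here. Between the mean of Obox1, Obox2 and Obox7 and the mean of Obox3, Obox5 and Obox6, 473 genes were higher and 1078 lower. Among the named genes, the log2 difference was 5.13 for Obox2 and 4.71 for Obox1, which are the expressed genes, and 2.65 for Lrrc34, 2.51 for Nkx6-2 and 2.48 for F2rl1. It was -5.88 for Trim43a, -5.75 for Guca1a, -4.81 for Dppa3, -4.46 for Pemt, -4.34 for Bex6 and -4.31 for Pdpn. Between single plasmids, 5 genes differed from ES_Obox1 to ES_Obox2, 2 from ES_Obox1 to ES_Obox7 and 4 from ES_Obox2 to ES_Obox7. No group of these plasmids had enough libraries to look for a sample that stands apart.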

How the results depend on the processing

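The counts against ES_Empty were small and moved with the settings, while 0 of the named genes changed direction in a call. For the mean of Obox1, Obox2 and Obox7 (5 higher, 0 lower), ES_Obox1 (5 and 2), ES_Obox2 (9 and 0) and ES_Obox7 (2 and 0) in turn, TPM as deposited gave 10 and 1, 13 and 3, 16 and 1, and 34 and 3. Without a filter on low values, which adds genes of a few reads, the counts were 43 and 9, 147 and 12, 116 and 9, and 152 and 11. Without robust moderation they were 25 and 6, 46 and 9, 45 and 4, and 42 and 6. A pseudocount of 0.1 gave 3 higher, 1 and 1, 1 higher, and 0. A filter at 5 scaled TPM gave 2 higher, 2 and 1, 2 higher, and 0. The fit of 5 libraries gave 0 higher. The pairs of plasmids (5 for ES_Obox1 and ES_Obox2, 2 for ES_Obox1 and ES_Obox7, 4 for ES_Obox2 and ES_Obox7) gave 8, 24 and 20 on TPM as deposited, 254, 294 and 247 without a filter, 70, 70 and 63 without robust moderation, and 1, 1 and 0 with a pseudocount of 0.1. With the filter at 5 scaled TPM, the first gave 3 and the last 1. Against Obox3, Obox5 and Obox6, 473 higher became 1187 on TPM as deposited and 806 with a pseudocount of 0.1. The 1078 lower became 740 on TPM as deposited and 1625 with that pseudocount. The cause was not tested.

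Protein-coding genes other than the expressed ones were called for the mean of the 3 under 4 settings, and in each it was Obox5 alone: TPM as deposited, no filter, no robust moderation, and without ES_Dux replicate 1. In single plasmids without a filter, up to 7 were called, among them Sord with ES_Obox1, Ppp1ccb with ES_Obox7 and Dnajc17 with ES_Obox2 and ES_Obox7. Sord was also called without robust moderation and without ES_Empty replicate 1. In each setting other than the fit of 5 libraries, where lists were not counted, the 17 lists other than the homeobox list held 0 called genes for the mean of the 3. Obox1 in the mean of the 3 lost its call with a pseudocount of 0.1, in the fit of 5 libraries and without ES_Obox1, and Obox2 in the fit of 5 libraries.

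Leaving out 1 library at a time, the mean of the 3 ranged from 2 (without ES_Empty replicate 1) to 7 higher (without ES_Obox2) and from 0 to 2 lower. ES_Obox1 ranged from 2 (without ES_Empty replicate 2) to 6 higher and from 1 to 2 lower, ES_Obox2 from 1 (without ES_Empty replicate 1) to 9 higher and 0 to 0 lower, and ES_Obox7 from 0 (without ES_Empty replicate 1) to 5 higher (without ES_Dux replicate 1) and 0 to 0 lower. The pairs ranged from 3 to 4, from 2 to 8 and from 1 to 4. Against Obox3, Obox5 and Obox6 the ranges were 432 to 549 higher and 1007 to 1121 lower.

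No paired analysis was possible because ES_Obox1, ES_Obox2 and ES_Obox7 each have replicate 1 only, so the groups share fewer than 2 replicate numbers. Depth limits genes near 1 scaled TPM, which rest on few reads, and near-identical Obox copies are uncertain in level.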
